A study of Mus musculus with 6 samples.

Results

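The cells described here were the 556 that the authors labelled DC, for dendritic cells, among 33961 cells of leukocyte-enriched CT26 tumors. They were chosen by that label alone, which the authors had taken from the best correlation of each cell with ImmGen reference profiles. The genes that the correlation used are not given in the sources used here, so any gene may have shaped the label, and the levels below describe what it gathered and were not tested. By their transcripts, 87 of the 556 cells were plasmacytoid DC-like (pDC-like), 61 were conventional type 1 DC-like (cDC1-like) and 86 were mature-like. The other 322 cells (57.9%) fell in clusters that the markers fixed for naming did not name.

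Dendritic cells take up antigen, process it and present it on MHC molecules to T cells. Conventional DCs depend on the receptor Flt3 and divide into cDC1, which carry Xcr1 and Clec9a and cross-present material of dead cells to CD8+ T cells, and cDC2, which carry Sirpa and C-type lectins. After activation both can turn on Ccr7, the receptor that guides them to lymph nodes, while pDCs are the main producers of type I interferon during virus infection.

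CT26 is a mouse colon carcinoma line, grown here under the skin of female Balb/c mice aged 5 to 6 weeks at purchase. The labels list 6 tumors in 3 groups of 2, treated with vehicle, a low dose or a high dose of a bispecific antibody that blocks PD-1 and carries GITR-L, a mouse surrogate with null effector function. The high dose is 30 mg/kg in the labels, whereas for the low dose the fields disagree, with 10 mg/kg in the protocol and 30 mg/kg among the characteristics. The study's text names an isotype control rather than a vehicle, and for these libraries 1 dose that is neither of those in the labels. Tumors were taken 5 days after treatment, CD45+ cells were enriched with beads, and single-cell mRNA-seq libraries were made with droplets, in which a molecular tag, the UMI, lets copies of 1 transcript count once. The table holds 4 libraries, M1, M2, M5 and M6, which no label ties to a tumor or a group. The libraries are therefore given one by one, are not replicates, and no treatment comparison was made.

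Dendritic cells were rare in every library. Library M1 held 140 cells labelled DC (1.36% of its cells), M2 held 153 (1.71%), M5 held 129 (1.80%) and M6 held 134 (1.77%). Over all libraries the share was 1.64% (95% exact binomial interval 1.51 to 1.78, counting error only, as for all intervals below). Many cells carried the label Stroma, and against immune-labelled cells alone the shares were 3.52%, 4.0%, 2.48% and 2.57% in the same order. On that scale M1 and M2 stood above M5 and M6, whereas against all cells M1 was the lowest. For every 100 cells labelled Myeloid, the nearest label in type, there were 24.2, 25.7, 19.1 and 16.1 DC.

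A DC held a median of 9549 UMIs, from 1282 to 118416, and a median of 2790 genes. The median depth of DC varied little between libraries, from 9065 to 10375 UMIs, although the median over all cells ran from 11399 to 21800. Among all cells 111 barcodes occurred in more than 1 library, and 3 of the DC had such a barcode, but none shared it with a DC of another library. A doublet score over 0.25 was reached by 9 DC (1.62%), which stayed in the results.

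Xcr1, Clec9a, Flt3 and Ccr7 are the markers given for the label. Their levels describe it and cannot check it, since they may have shaped it. Levels are in CPM, the UMIs of a gene over those of all genes in the summed cells, scaled to the usual fixed total. Xcr1 (chromosome 9, 123852315 to 123862029, minus strand of GRCm38), the receptor for the chemokine XCL1, had 181 CPM. By library Xcr1 stood at 152, 254, 167 and 134 CPM in M1, M2, M5 and M6, against 3.89 to 13.3 in Myeloid, the next highest label. Clec9a (chromosome 6, 129408862 to 129424763, plus strand), a receptor for the actin of dead cells, had 86.8, 110, 108 and 83.8 CPM in M1, M2, M5 and M6, against 5.0 over all Myeloid cells. Flt3 (chromosome 5, 147330741 to 147400489, minus strand) had 64.0, 76.1, 80.9 and 90.5 CPM in the same order, against 9.03 in B cells, the next label. These genes were higher in DC than in every other label in 4 of 4 libraries.

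Ccr7 did not set the label apart. Ccr7 (chromosome 11, 99144196 to 99155077, minus strand) had 359, 272, 289 and 935 CPM in M1, M2, M5 and M6, so that M6 stood far above the others. Naive T cells reached 795 CPM over all libraries, the label T cells reached 582 and B cells 492. DC had the most Ccr7 in 1 library only. The zinc finger factor Zbtb46 (30.0 CPM in DC, 11.1 in the next label, T cells), which marks conventional DCs, and the integrin Itgax, which encodes CD11c (48.3 CPM against 33.4 in ILC), were highest in DC in 4 of 4 libraries.

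**Figure D1:**
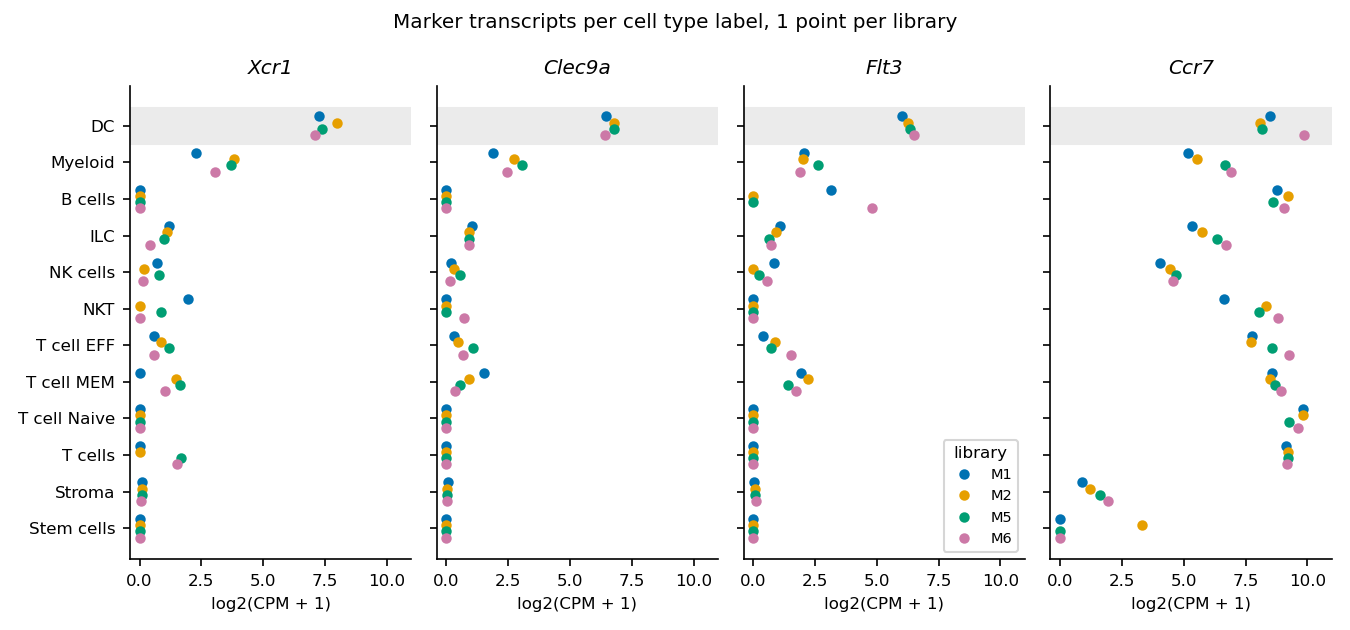
Levels of Xcr1, Clec9a, Flt3 and Ccr7 as log2(CPM + 1) on the horizontal axes for the 12 cell type labels, with 1 point for each of the 4 libraries. Xcr1, Clec9a and Flt3 are highest in DC (181, 97.7 and 77.7 CPM over all libraries), while Ccr7 (456 CPM) is higher in naive T cells (795 CPM), T cells (582 CPM) and B cells (492 CPM).

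Deeper cells show more genes, and for shares of positive cells all were therefore thinned to 2000 UMIs, which left 539 DC. Xcr1 was then detected in 16.3% of DC (13.3 to 19.7), Clec9a in 17.6% (14.5 to 21.1), Flt3 in 14.1% (11.3 to 17.3) and Ccr7 in 22.1% (18.6 to 25.8). In NK cells, which should lack Xcr1, Clec9a and Flt3, the shares were 0.0948%, 0.0711% and 0.0711%. Without thinning the shares in DC were 31.3%, 45.7%, 49.6% and 33.6%, at a median depth of 9549 UMIs against 5397 in NK cells.

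Xcr1 and Clec9a were often found in the same cells, whereas Siglech, a lectin of pDCs, was rarely found with Xcr1. Of 556 DC, 98 had none of Xcr1, Clec9a, Flt3 and Ccr7, 184 had 1, 143 had 2, 103 had 3 and 28 had all 4. Clec9a was found in 80.5% of the 174 DC with Xcr1 and in 29.8% of those without it. Siglech was found in 3 of the 174 cells with Xcr1 and in 29.1% of the others, and Ccr7 in 25.3% against 37.4%. These shares are unthinned and follow depth as well as cell type.

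Clustering of the 556 cells gave 11 clusters. Cluster 1 was pDC-like, cluster 4 cDC1-like, and clusters 5 and 11 mature-like, by the fixed markers. Cluster 11 met the rule through other markers than Ccr7, which had 423 CPM there (293 to 592), between the 173 of DC outside clusters 5 and 11 and the 3219 of cluster 5. Among those other DC, cluster 2 without its keratin-rich cells, described below, had 702 CPM of Ccr7, above cluster 11. Ccr7 was found in 40 of these 66 cells of cluster 2. No cluster met the rule for cDC2-like cells, although 18 cells did at resolution 1.2 and 48 with 30 principal components. Since the clusters were made from these same genes, the genes that lead them are a description. The naming lists held, among others, Siglech, Ccr9, Bst2, Tcf4, Cox6a2 and Klk1 for pDC-like cells. For cDC1-like cells they held Xcr1, Clec9a, Wdfy4, Tlr3, Itgae, Naaa, Batf3 and Irf8, among others. The levels of these genes given below are no support for the names. All 11 clusters held cells of all 4 libraries.

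**Figure D2:**
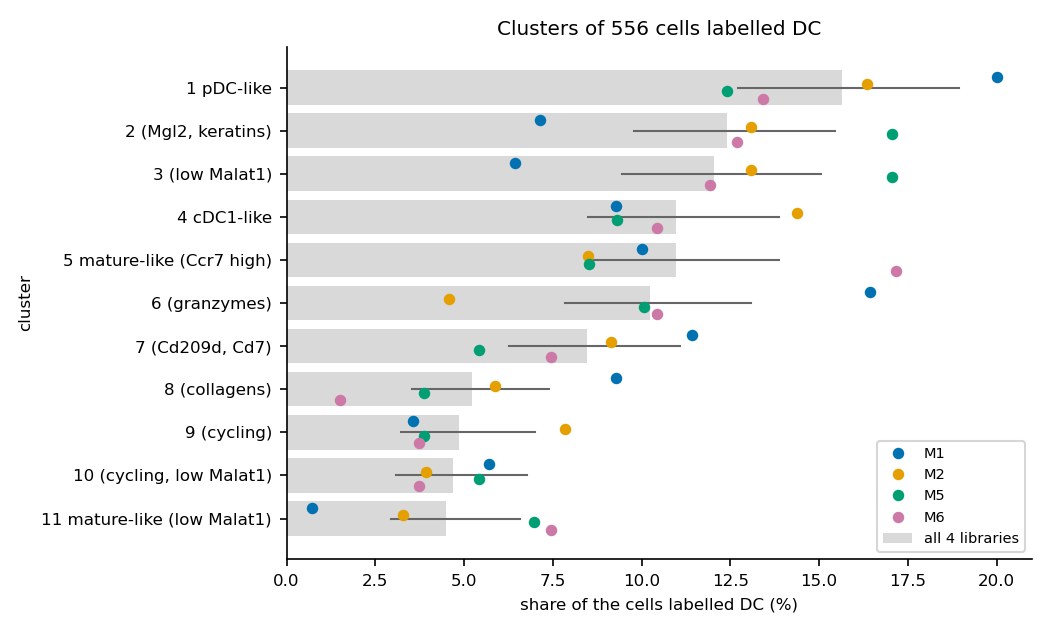
Share of the 556 cells labelled DC in each of 11 clusters (bars, all libraries together, with 95% exact binomial intervals as lines) and in each library (points), in percent on the horizontal axis. The pDC-like cluster 1 holds 15.6% of cells, with library values from 12.4% to 20%, and cluster 5 stands highest in M6 at 17.2%.

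Before the subsets, 1 feature set a group of cells apart. Malat1 (chromosome 19, 5795690 to 5802672, minus strand), a long noncoding RNA that is kept in the nucleus, made up under 0.1% of UMIs in 109 DC (19.6%, interval 16.4 to 23.2). Few cells lay just above the limit, with 85 cells under 0.05%, 24 from 0.05% to 0.1%, 4 from 0.1% to 0.2% and 2 from 0.2% to 0.3%. The 109 cells were shallow, with a median of 3127 UMIs against 12096 in the rest, and they had less mitochondrial RNA, at a median of 1.5% against 4.29%. They made up 11.4%, 17.6%, 28.7% and 21.6% of DC in M1, M2, M5 and M6. In other labels such cells were 6.53% of Myeloid, 2.17% of Stroma, 0.496% of T cell EFF and 0.659% of NK cells, but 25 of the 37 cells labelled Stem cells (67.6%). What these cells are was not tested, and the limit of 0.1% was set after the values were seen.

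Clusters 3, 10 and 11 held 107 of these 109 cells. Neat1, another nuclear noncoding RNA, had 17.2 CPM in the cells under the limit and 800 in the others. The actin-binding Tmsb4x had 66063 CPM against 29906, and Cst3, a protease inhibitor abundant in DCs, 33198 against 18073. Il1b, an inflammatory cytokine, stood at 283 CPM against 1793, and the range over libraries, 125 to 479, did not meet that of the others, 1437 to 2064. Csf2rb, a subunit of the GM-CSF receptor, had 49.1 CPM against 364, and the activation marker Cd83 160 against 491. Xcr1 (135 CPM against 184), Flt3 (73.7 against 77.9) and Clec9a (150 against 94.9) differed less, but Ccr7 had 101 CPM against 474. Going the other way, Fscn1, also a mature DC marker, had 609.5 CPM (0 to 779 over libraries) against 262.5, and the chemokine Ccl5 1403 against 820. Of the cells under the limit, 23 were mature-like, 1 pDC-like, 0 cDC1-like and 85 in unnamed clusters. These pooled values were not split by subset. At the other end, 27 DC had over 5% Malat1 UMIs, at a median depth of 2997 UMIs.

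**Figure D3:**
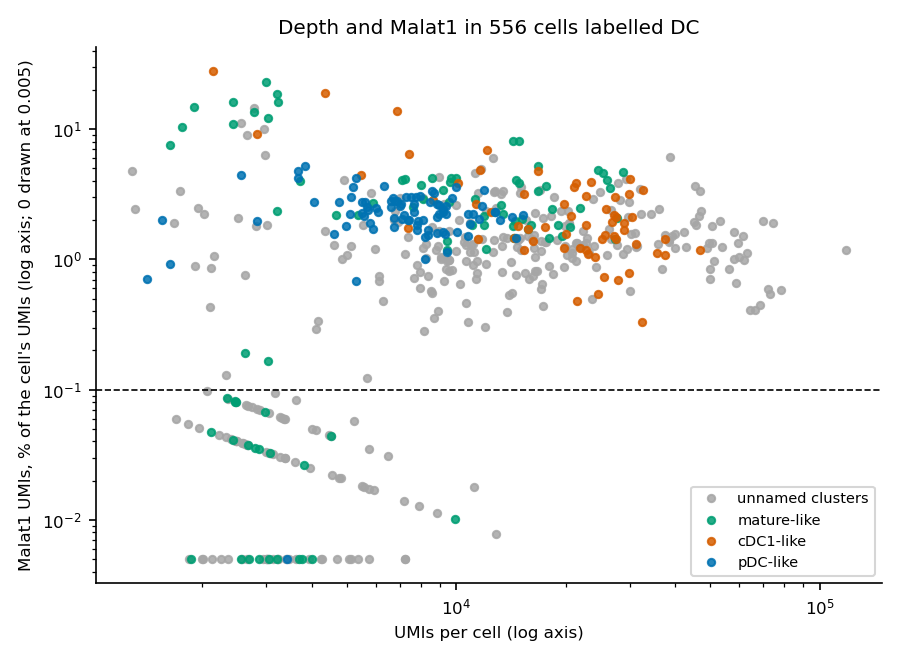
UMIs per cell (horizontal log axis) against the percent of the cell's UMIs from Malat1 (vertical log axis, 0 drawn at 0.005) for the 556 cells labelled DC, coloured by subset. The 109 cells under the dashed line at 0.1% had a median of 3127 UMIs and include 23 mature-like, 1 pDC-like and no cDC1-like cells.

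Plasmacytoid DC-like cells formed cluster 1, with 87 cells (15.6%, interval 12.7 to 18.9). They made up 20%, 16.3%, 12.4% and 13.4% of DC in M1, M2, M5 and M6, and held a median of 7499 UMIs. Siglech (chromosome 7, 55768178 to 55778925, plus strand) was present in all 87 cells, with 1851, 1951, 1810 and 2238 CPM in M1, M2, M5 and M6, against 25.7 in other DC. The log2 ratio was 6.19, and 8.49 without clusters 2, 6 and 8 among the other DC. The leading genes were Klk1, a kallikrein protease (2628 CPM against 32.9), Siglech, Cox6a2, a subunit of cytochrome c oxidase (1112 against 14.5), Mzb1, an endoplasmic reticulum cochaperone (367 against 4.53), and Ccr9, a gut-homing receptor (2024 against 30.1). After them came Slpi, Iglc3, Gm21762, Sh3bgr and Klk1b27.

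Among regulators of pDCs, Tcf4, the factor that holds their identity, had 1786 CPM against 113 in other DC (log2 ratio 3.97, 3.63 to 4.62 over libraries). Id2, an inhibitor of such E proteins, had 27.3 CPM against 811. Irf8 was at 2144 CPM, Bst2, a restriction factor of enveloped viruses, at 3625, and Tlr7, a sensor of single-stranded RNA, at 111, with a UMI in 51.7% of the cells. Ifnb1 had no UMI in any of the 556 DC, which allows up to 0.368 CPM over all DC and 4.545 CPM in the pDC-like cells. Il12a was detected in 22 of 87 pDC-like cells, at 42.4 CPM. It had 0 UMIs in the cDC1-like and mature-like cells, which allows up to 2.315 and 3.61 CPM. The chemokine Ccl4 varied widely, at 1917, 3973, 472 and 554 CPM in M1, M2, M5 and M6. H2-Aa, an MHC class II chain, stood at 1865 CPM against 6113 in other DC, lower in 4 of 4 libraries.

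The 61 cDC1-like cells made up 10.97% of DC (8.50 to 13.9), with 9.29%, 14.4%, 9.30% and 10.4% in M1, M2, M5 and M6. They were deep, with a median of 22692 UMIs. Xcr1 had 390, 477, 525 and 528 CPM in M1, M2, M5 and M6, and was found in 57 of 61 cells. Clec9a was found in all 61, at 188, 185, 286 and 236 CPM. With each cell given to the marker list with the largest sum, in place of clusters, the cDC1 share was 49.5%. The libraries were close in both genes, and the log2 ratio to other DC was 1.97 for Xcr1 and 1.54 for Clec9a. Xcr1 was also present in other clusters, with 417 CPM in cluster 9, 219 in cluster 6 and 195 in cluster 3.

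The leading genes of the cDC1-like cells were Itgae, which encodes the integrin CD103 (327 CPM against 59.2), Dcstamp, A530099J19Rik, Khdrbs3, Ffar4, Dpy19l3, Slc8b1, Plet1 (1267 against 299), the lectin Cd207 (119 against 28.0) and Xcr1. Cd207 came from 9 cells, with 90.9% of its UMIs in 3 of them, and ran from 0 CPM in M1 to 489 in M5. Wdfy4, which is needed for cross-presentation, stood at 546 CPM, with a UMI in 98.4% of cells. Naaa, a lysosomal hydrolase, stood at 1541 CPM, and Tlr3, a sensor of double-stranded RNA, at 46.3. MHC class II transcripts were high, with 9397 CPM for H2-Aa, close to the 9636 of cluster 3, and 18067 for the invariant chain Cd74. Cd209a and Sirpa, genes of cDC2, had no UMI, which allows up to 2.32 CPM.

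The 86 mature-like cells made up 15.5% of DC (12.6 to 18.7), and the share was uneven: 10.7%, 11.8%, 15.5% and 24.6% in M1, M2, M5 and M6. Without M6 it was 12.6%. Of these cells 61 were in cluster 5, at a median of 11945 UMIs, and 25 in cluster 11, at 2872 UMIs, of which 23 were under the Malat1 limit. Cluster 5 alone made up 10.97% of DC, and 17.2% in M6. Ccr7 stood at 3338, 2638, 1810 and 3389 CPM in M1, M2, M5 and M6, against 139, 91.8, 156 and 345 in other DC. Ccr7, Fscn1, Ccl22, Ccl17, Cacnb3, Il4i1, Socs2, Relb, Cd40 and Nudt17 were among the markers used for naming. Their distance from other DC, here and below, is therefore a description and no support for the name. Fscn1, an actin-bundling protein of mature DCs (chromosome 5, 142960343 to 142973185, plus strand), stood at 1762, 1634, 2214 and 3350 CPM, against 23.6 over other DC. M6 was the highest library for both Ccr7 and Fscn1. The 2 clusters were unlike in Ccr7, found in 60 of the 61 cells of cluster 5 and in 13 of the 25 of cluster 11, where it stood at 423 CPM. Fscn1 was high in both, at 2444 CPM in cluster 5 and 3425 in cluster 11.

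By the rule of over 2-fold on CPM + 1 in all 4 libraries, 385 of 8032 genes with at least 10 CPM (4.79%) were higher in mature-like cells than in other DC and 844 (10.5%) lower, with a median log2 ratio of -0.32 over all genes. As these cells were clustered on such genes, nothing is read from the counts. Of 9 cytokine genes Il12b, Il15ra and Il6 were higher and Tgfb1 lower, and of 10 chemokine genes Ccl5, Ccl17, Ccl22 and Cxcl16 were higher and Ccl4 lower. Of the other lists, 5 of 8 migration genes were higher, 5 of 15 transcription factors were higher and 2 lower, and 3 of 7 tolerance genes were higher and 1 lower. By contrast, 7 of 11 pattern and damage receptors, 6 of 7 chemokine receptors and 3 of 7 cross-presentation genes were lower, and 1 chemokine receptor, Ccr7, was higher. Of 5 growth factor receptors 1 was lower, as was 1 of 15 interferon-stimulated genes. Il12b, the p40 chain of IL-12 and IL-23 (chromosome 11, 44400063 to 44414033, plus strand), had 1014, 1261, 398 and 1499 CPM in M1, M2, M5 and M6, against 44.2 in other DC, and was found in 48 of 86 cells. Ccl22, which attracts CCR4+ T cells (chromosome 8, 94745590 to 94751699, plus strand), had 1606, 1027, 1268 and 1552 CPM against 67.5, and Ccl5, a T cell attractant, had 7017, 9918, 6143 and 3542 against 267, 74.4, 161 and 710. The log2 ratio of Ccl5 was 4.39, but 5.60 without M6 and 3.70 without M2. M6, which led in Ccr7 and Il12b, was the lowest in Ccl5. Il15ra, which presents IL-15, was at 190 CPM, and Il10 had 12 UMIs in 5 of all 556 DC. The other leading genes were Nudt17, Cacnb3 (835 CPM against 14.6), Ankrd33b, Rab26, Mreg, Slc27a3, Cd70, Tmem150c and Gm13546.

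Of 14 checkpoint and costimulatory ligands, 6 were higher by that rule, Cd274, Cd40, Tnfsf4, Tnfsf9, Cd70 and Cd200, and 2 were lower, Lgals9 and Vsir, with a list median log2 ratio of 1.64. Cd274, which encodes PD-L1 (chromosome 19, 29367455 to 29388095, plus strand), had 378, 403, 336 and 473 CPM in M1, M2, M5 and M6 of the mature-like cells, against 91.0, 119, 148 and 166 in other DC. The lowest mature-like value was above the highest of the others. By cluster, Cd274 had 451 CPM in cluster 5 and 112 in cluster 11 (51.3 to 213, from 9 UMIs). Pdcd1lg2, the second PD-1 ligand, stood at 168 CPM, Cd86 at 507, Cd80 at 214, Cd40 at 339 and Cd200 at 337. Tnfsf9 (4-1BB ligand) had 104 CPM, Cd70 80.6 and Tnfsf4 (OX40 ligand) 32.5. Il4i1, an amino acid oxidase, stood at 489 CPM.

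Of 11 MHC class I and peptide loading genes 1 was higher in the mature-like cells, B2m, and the list median was 0.32. Of 11 class II genes H2-Ab1, H2-DMa, H2-DMb1 and H2-DMb2 were lower and none was higher, with a median of -1.05. B2m, the shared light chain of MHC class I, was at 4713 CPM against 1992 in other DC (log2 ratio 1.24, 1.02 to 1.35 over libraries). H2-Aa was at 3536 CPM against 6022 (-0.77, -0.98 to -0.74, and -1.26 with cells thinned to 2000 UMIs), and H2-DMb1, a class II peptide exchange factor, at 26.5 CPM, against 857 in cDC1-like cells. Clec9a had 27.7 CPM and Xcr1 18.0 in the mature-like cells, and Batf3, a factor for cDC1, had 136 CPM against 96.5 in cDC1-like cells.

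Clusters 2 and 7 had the highest levels of Cd209a, the lectin DC-SIGN of cDC2. Cluster 2 (69 cells, 12.4%) was led by keratin genes, but 98.6% of the 2839 UMIs of Krt1, Krt5, Krt10 and Krt14 in DC lay in 3 cells, with 31312 to 60007 UMIs each. Without those 3 cells, cluster 2 had 499 CPM of Mgl2, the lectin CD301b, against 68.7 in the DC outside it, 266 of Cd209a against 50.7, 195 of Clec10a against 36.4, 119.5 of Sirpa against 26.4 and 68.4 of Itgam against 9.15. Other genes of the cDC2 list were not higher there, with 10.6 CPM of Irf4 against 13, 209 of Klf4 against 247 and 32.8 of Cd7 against 105. With all 69 cells, the 10 macrophage genes summed to 1044 CPM in cluster 2 against 350 over all DC, and the 7 monocyte genes to 1934 against 1704. The 5 neutrophil genes summed to 526 CPM there against 108.5, unevenly, from 2.755 to 1521 over libraries. At least 2 UMIs of them were found in 8 of the 69 cells. Without the 3 cells, Csf1r had 87.7 CPM against 6.58 outside the cluster, but Apoe 47.2 against 47.0. The lectin Clec4n had 489 CPM against 19.7, and Il1b 4992 against 1257. Cxcl9 and Cxcl10, ligands of CXCR3 on T cells, stood at 1178 and 1195 CPM, against 299 and 265. C1qa, a complement gene of macrophages, was at 81.0 CPM in these 66 cells, against 1034 in Myeloid.

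Cluster 7 (47 cells, 8.45%) had Cd209d, Ramp1, Upb1 and Cd300a among its leading genes. Cd209d is a homologue of DC-SIGN, and 68.9% of its UMIs there came from 3 cells. Cd209a had 252 CPM in cluster 7 and Cd7 414, Tcf4 305, Kit, the stem cell factor receptor, 113, and Il1b 3010. Siglech had 34.7 CPM there against 1948 in pDC-like cells, and Sirpa had 37.0. Cd209a was also found in 33 of the 87 pDC-like cells, at 150 CPM.

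Clusters 6 and 8 carried transcripts of other cell types. Cluster 6 (57 cells) was led by Gzmg, Gzmc and Gzmd, granzymes of cytotoxic lymphocytes, with 83.4% of its Gzmc UMIs in 3 cells. The 5 genes of the NK cell list summed to 2385 CPM in cluster 6 (1607 to 3586 over libraries) and to 606 over all DC, and 66.7% of its cells had at least 2 UMIs of the 6 genes of the T cell list, against 20.3% of all DC, which were less deep (medians of 17228 and 9549 UMIs). Cluster 8 (29 cells, a median of 46670 UMIs) was led by Mgp, Cavin2 and Cald1. Its 4 fibroblast genes summed to 1008 CPM (758 to 1395 over libraries) against 182 over all DC, and 8 of its cells had a doublet score over 0.25. Its CT26 tumor cell list of 5 genes summed to 486 (301 to 561 over libraries) against 138, but Krt19 and Cldn4 of that list had no UMI there. The same list summed to 201 CPM in the mature-like cluster 5, with no UMI of Krt8, Krt19 or Cldn4. Pdcd1, which encodes PD-1, stood at 26.6 CPM in DC and at 93.3 in cluster 6, and Tnfrsf18, which encodes GITR, at 55.2 and 170. Doublets and free RNA were not separated, and their part in these values was not tested. Tnfsf18, the gene of GITR ligand, had 4 UMIs in 3 DC.

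Clusters 9 and 10 were cycling. The 9 cycling genes summed to 2364 CPM in cluster 9 (27 cells, a median of 37570 UMIs) and to 2281 in cluster 10 (26 cells, 3778 UMIs), against 561 over all DC, and to 97.0 and 89.2 in clusters 1 and 5. Cluster 9 had Xcr1 at 417 CPM, from 91.2 in M6 to 639 in M2, and Wdfy4 at 368. Gzma, a granzyme, stood at 3208 CPM in its cells of M1 and 4441 in M6, and at 7.92 in M2 and 40.7 in M5. The NK cell list summed to 1532 CPM in cluster 9 (23.8 to 4848 over libraries) and 781 in cluster 10, against 606 over all DC. The T cell list summed to 509 CPM in cluster 9 and 26.9 in cluster 10, against 266 over all DC. Cluster 9 held 12 cells of M2 and 5 of each other library. Cluster 3 (67 cells, 63 of them under the Malat1 limit) had Naaa at 1225 CPM, Xcr1 at 195 and Clec9a at 204, and the immunoproteasome gene Psmb9 at 2414, against 1449 in cDC1-like cells.

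**Figure D4:**
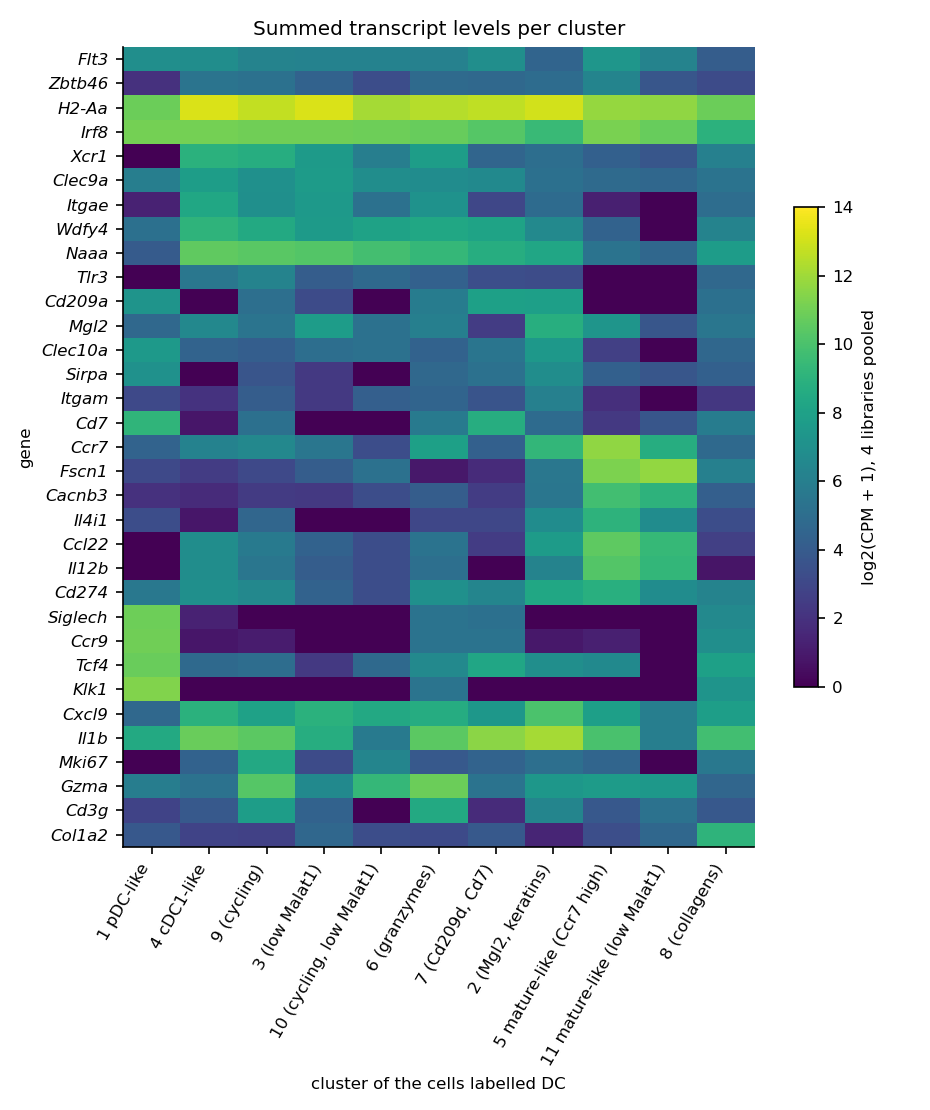
Transcript levels of selected genes (rows) in the 11 clusters of cells labelled DC (columns), as log2(CPM + 1) with all libraries pooled, by colour. Siglech, Ccr9, Tcf4 and Klk1 stand out in cluster 1, Xcr1 in clusters 4 (486 CPM) and 9 (417 CPM), and Ccr7 in cluster 5 (3219 CPM), while H2-Aa and Irf8 are seen in all clusters.

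DC were next compared with Myeloid, the 2680 cells of macrophages, monocytes and other myeloid types, within each library. A gene was called when it differed over 2-fold, on CPM + 1, in the same direction in all 4 libraries. Of 8214 genes with at least 10 CPM in either label, 289 (3.52%) were called higher in DC and 422 (5.14%) lower, and the median log2 ratio over all genes was 0.01. Without clusters 2, 6 and 8, described above, 382 were called higher and 801 lower, and 274 of the 289 and 392 of the 422 remained. That setting also dropped the 66 cells of cluster 2 that were not rich in keratins. With cells thinned to 2000 UMIs, 225 of the 289 and 348 of the 422 remained. All 4 genes given for the label were called higher, which is no check on the label, since they may have shaped it. The genes most above Myeloid were Il12b (160 CPM against 1.66), Ccl22 (204 against 7.53), Il4i1 (72.1 against 2.00), Sept3, Cacnb3, Siglech (181 against 5.37), Ccr9, Bcl2l14, Flt3, Clec9a, Xcr1, Iglc3, Klk1, Mycl and Cox6a2. They include genes of all 3 named subsets.

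Genes far below Myeloid were led by those of mast cells. Cma1 and Mcpt4, mast cell proteases, had 2.45 and 1.72 CPM in DC against 881 and 580, and Tpsb2, Tpsab1 and Cpa3 followed. The IgE receptor chain Fcer1a had no UMI in DC and was at least 160-fold lower, and the same bound was 118-fold for Tph1. After them came Mmp13, Cxcl3, Colec12, the platelet factor Pf4 (4.41 CPM against 214), Ms4a7, Trem2 (4.66 against 147), Ccl24 and Cyp11a1. All 10 macrophage genes, all 5 neutrophil genes, 4 of 7 monocyte genes and 4 of 5 mast cell genes were called lower. The fifth mast cell gene, Kit, was called higher (60.2 CPM against 24.2).

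**Figure D5:**
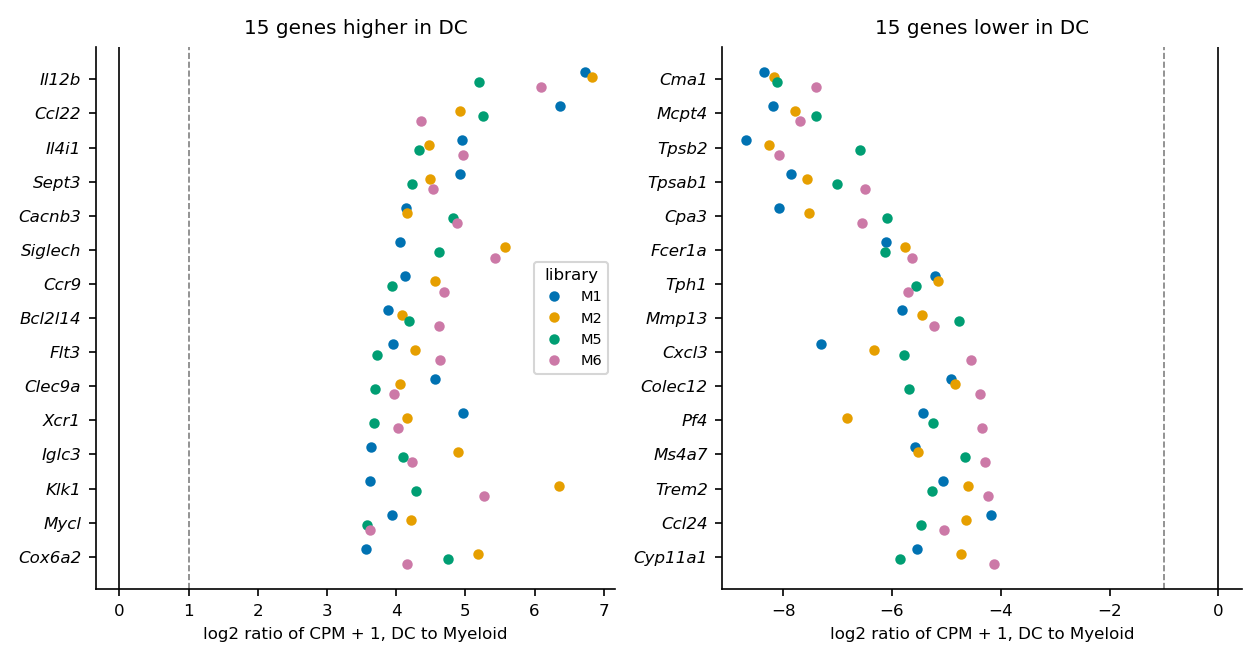
Log2 ratio of CPM + 1 between the cells labelled DC and those labelled Myeloid (horizontal axes) for the 15 called genes farthest above and the 15 farthest below Myeloid, with 1 point per library and a dashed line at the 2-fold limit. Il12b lies between 5.19 and 6.83, and Cma1 between -8.35 and -7.40.

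For antigen presentation, 8 of 11 MHC class II genes were called higher and 1 lower, with a median log2 ratio of 1.64. H2-Aa had 4531, 5819, 7059 and 5756 CPM in M1, M2, M5 and M6, against 1225 to 1946 in Myeloid, with no overlap. Ctss, a protease that degrades the invariant chain, was the exception, at 417, 432, 590 and 629 CPM against 1432 to 2087. None of 11 MHC class I and peptide loading genes was called (median -0.15). Of 7 cross-presentation genes Clec9a and Wdfy4 (228 CPM against 25.8) were called higher and Cybb, a subunit of the NADPH oxidase, lower. Cst3 had 18828 CPM against 2072, and was found in 99.1% of DC.

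For signals to T cells, 1 of 11 checkpoint and costimulatory ligands was called, Icosl, at 10.1 CPM against 2.97. Cd274 had 111, 139, 164 and 225 CPM in DC of M1, M2, M5 and M6, and 168, 269, 446 and 497 in Myeloid. It was below Myeloid in each library, but past 2-fold in some libraries only. Cd86 had 265 CPM against 135 and Cd40 93.6 against 80.5, and neither was called. Of 11 cytokine genes Il12b was called higher, and Il27, Il18, Il6, Il10 and Tnf lower. Tnf had 41.3 to 54.6 CPM in DC and 185 to 444 in Myeloid. Ccl17 and Ccl22 were called higher, and Ccl3, Ccl6 and Ccl9 lower. Cxcl9 had 406 CPM against 479 and Cxcl10 380 against 737, neither called.

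For receptors and regulators, the chemokine receptors Xcr1, Ccr7 and Ccr9 were called higher and Ccr1 lower. Flt3 and Kit were called higher, and the receptors for M-CSF and G-CSF, Csf1r (19.7 CPM against 140) and Csf3r (1.84 against 51.9), lower. Of 15 transcription factors Irf8, Batf3, Zbtb46 and Tcf4 were called higher and Zeb2 lower. Of 13 receptors for patterns and cell damage, Tlr11 and Clec9a were called higher, and Tlr2, Tlr4, Clec4n and Mertk, an uptake receptor for dying cells, lower. Of 15 interferon-stimulated genes 1 was called, Rsad2, at 60.2 CPM against 370, with a list median of -0.86. Of 8 tolerance and regulation genes Il4i1 was called higher, and 3 were called lower: Socs3 and the enzymes of arginine metabolism Arg1 and Nos2.

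Compared with all 8 other immune labels of at least 100 cells, 106 of 9531 genes (1.11%) were over 2-fold higher in DC than in each of them, in all 4 libraries. The farthest were Sept3, Clec9a, Xcr1, Il12b, Tbc1d8, Khdrbs3, A530099J19Rik, Plet1, Cacnb3, Ffar4, Gm21762, Ttc39a, Zfp366, Cst3 and Gcsam. Sept3, a septin, had 159 CPM against 5.97 in Myeloid, and Tbc1d8, a Rab regulator, 143 against 10.7. Of the 106 genes, 25 were at their highest in the cDC1-like cluster 4, 36 in the mature-like clusters 5 and 11, 14 in the pDC-like cluster 1 and 12 in cluster 3. Cluster 6 was the highest for none of them.

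Transcripts of DC were also found outside the label. At least 2 of Xcr1, Clec9a, Flt3 and Ccr7 were found in 196 cells of other labels, of which 83 were Myeloid (3.10% of that label), 49 ILC, 29 T cell EFF and 19 T cell MEM, against 274 DC. Ccr7 was itself found, unthinned, in 42.5% of T cell EFF and 45.9% of T cell MEM, so those cells needed only 1 other gene. With 3 or more of the genes there were 26 Myeloid, 15 ILC, 9 T cell EFF and 4 T cell MEM cells, against 131 DC. The 196 cells were deep, with a median of 36960 UMIs against 15640 in the 274 DC, and after thinning to 2000 UMIs 13 remained. The 83 Myeloid cells had 73.0 CPM of Xcr1 and 39.9 of Clec9a, both used to pick them. Of genes that were not used, Siglech had 24.9 CPM against 3.37 in other Myeloid, Il12b 9.34 against 0.870 and Fscn1 37.1 against 10.2, all below DC. Macrophage genes were present too, with 4616 CPM of Lyz2 against 6840 in other Myeloid and 535 in DC, and 969 CPM of C1qa against 1040 in other Myeloid and 38.0 in DC. H2-Aa, a class II chain, had 2679 CPM in the 83 cells, 1663 in other Myeloid and 5769 in DC. A doublet score over 0.25 was reached by 6 of the 83.

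Most genes were alike in DC of the 4 libraries. Of 1446 genes with at least 100 CPM, 83 (5.74%) differed over 2-fold between the highest and the lowest library, and the median ratio was 1.27. Among the 10 widest, 5 had most of their UMIs in 3 cells: Krt10 (3.31 CPM in M2, 397 in M6) with 97.5%, Gzmd 83.6%, Gzmf 85.3%, Gzmc 68.0% and Lgals7 73.3%. In the others the 3 cells held 27.3% to 48.6%. Tm4sf1, a membrane protein, had 510, 252, 50.7 and 18.4 CPM in M1, M2, M5 and M6, and Timp1, an inhibitor of matrix proteases, 262 in M1, 117 in M2, 28.6 in M5 and less in M6. Cluster 8, with its fibroblast genes and part of the CT26 tumor cell list, ran in the same order, with 9.29%, 5.88%, 3.88% and 1.49% of DC. Its part in these values was not tested. Cxcl2, a neutrophil attractant, had 672 CPM in M6 and 72.1 to 208 elsewhere. Ccl2, which attracts monocytes, had 940 in M2 and 117 to 418 elsewhere, with 48.6% of its UMIs in 3 cells. Hspa1a, a heat shock gene, had 198 CPM in M2 and 163 in M6, against 18.8 in M1 and 37.4 in M5.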

How the data were processed

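The labels list leukocytes of 6 CT26 tumors, and the deposited table holds 4 libraries with 33961 cells and 31053 genes. The authors deposited UMI counts for each cell and gene, without scaling, made with Cell Ranger 3.0.2 on GRCm38, with each cell's total, library and cell type label. The study's methods name a minimum of UMIs per cell, and name no removal of doublets or free RNA. The number of genes per cell was used as deposited by the authors.

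Cells were taken by the label DC. The label's members, gene lists and rules were chosen with earlier results of these data known. Counts were summed per label or cluster and library and scaled to CPM. Ratios are log2 of CPM with a pseudocount of 1. Genes with at least 10 CPM pooled in a compared label were used. Cells were thinned without replacement to 2000 UMIs. Intervals are exact 95% binomial or Poisson, cover counting error only, and 0 UMIs was taken to allow 3. DC were clustered in scanpy 1.11.5 (2000 variable genes, 20 principal components, 15 neighbours, Leiden resolution 0.8). A cluster was named where at least 3 fixed markers of a subset were over 2-fold higher than in other DC at 10 CPM or more, and 1 or more of them, and no fewer than of any other list, were among its 10 leading genes. Doublets were scored per library with scrublet (expected rate 0.06). An automatic threshold differed between libraries, so 0.25 was used, chosen after those thresholds were seen. Code was run in Python 3.11.15 with numpy 2.4.6, scipy 1.17.1 and pandas 2.3.3, and the fold rule and thinning were tested on simulated data. Gene positions are from GENCODE M21.

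Genes named were chosen among the 15 called genes in each direction whose least extreme library was farthest from Myeloid, the 15 farthest above all other immune labels, the 10 highest by fold in each named subset, the 10 most uneven between libraries, and all genes on the fixed lists. A few listed symbols were not matched in the table. Malat1, Neat1, Cst3 and the genes set beside the Malat1 limit were chosen after their values were seen, as were the genes that lead clusters. Alternatives left out libraries, doublets, cells by mitochondrial or Malat1 share, and changed the pseudocount, filter, depth and clustering. Many genes on the lists are given only within counts, some lists only for part of the comparisons, and a few genes are not reported here. Tests between treatment groups were not run, because the library names were not matched to tumors.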

Additional observations from a re-analysis of the deposited data

Results flagged for a closer look

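Ccr7 in DC stood at 935 CPM in library M6, against 272 to 359 in M1, M2 and M5, a gap of 0.870 of the range. In the mature-like cells M6 had 3389 CPM and M1 3338, and in the other DC Ccr7 was also highest in M6, at 345 CPM against 91.8 to 156. The share of mature-like cells was 24.6% in M6 against 10.7% to 15.5%.

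Cluster 9, the deeper cycling cluster, made up 7.84% of DC in M2 and 3.57% to 3.88% elsewhere, a gap of 0.929 of the range. Its 12 cells in M2 are few. These were 2 of 23 quantities looked at with Dixon's limit for 4 samples, which chance passes in about 1 of 20, and libraries of unknown treatment are no group.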

How the results depend on the processing

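The share of DC was 3.05% of immune-labelled cells and 1.34% without cells under 0.1% Malat1, and 1.59% to 1.76% without 1 library. The pDC-like share was 84 to 87 cells over the clustering alternatives, 19.2% without cells under 0.1% Malat1 and 14.2% to 16.6% without 1 library. With each cell given to its largest summed marker list, in place of clusters, the shares were 21.0% pDC-like, 49.5% cDC1-like and 23.2% mature-like. Without 1 library the cDC1-like share was 9.68% to 11.5% and the mature-like share 12.6% to 17.1%, the lowest without M6. No cDC2-like cluster was found in the main clustering, but 18 cells at resolution 1.2 and 48 cells with 30 principal components met that name.

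Genes called against Myeloid numbered 164 higher and 280 lower with a pseudocount of 10 CPM and 135 and 239 at 50 CPM or more. They numbered 382 and 801 without clusters 2, 6 and 8, and 300 to 328 and 449 to 531 without 1 library. A larger pseudocount or minimum can only remove calls, and leaving out a library mostly adds them, so those counts are no check. Thinning to 2000 UMIs gave 305 and 556, which kept 225 of the 289 and 348 of the 422. The mean over cells of CPM gave 343 and 536, which kept 266 and 385. Genes above all other immune labels numbered 64 with a pseudocount of 10 CPM, 53 at 50 CPM or more, and 112 to 137 without 1 library. Cells outside the label with DC transcripts numbered 13 after thinning and 55 with 3 of the 4 genes. Of 126 recomputed log2 ratios of single genes between subsets and other DC, 10 moved and none changed sign. Without clusters 2, 6 and 8 the ratio was 8.49 for Siglech and 8.35 for Ccr9 in pDC-like cells. In mature-like cells it was 5.64 for Ccr7, 8.25 for Fscn1 and 2.27 for Cd274. All were larger than with those clusters. The setting also dropped the 66 cells of cluster 2 that were not rich in keratins, which had 702 CPM of Ccr7. The part of each cluster in these ratios was not tested. Shares of cells with a UMI of the 4 given genes moved with depth in 12 alternatives. The alternatives on Malat1 and on clusters 2, 6 and 8 were chosen after seeing the data. No paired analysis was possible because the libraries could not be matched to the numbered tumors, and no comparison of groups was run.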
